A study of Drosophila melanogaster with 384 samples.

Results

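The levels of 7 genes that switch on transcription in primary spermatocytes of Drosophila melanogaster were followed in the RNA of whole males and whole females: aly (always early, FBgn0004372), topi (matotopetli, FBgn0037751), comr (cookie monster, FBgn0034667), can (cannonball, FBgn0011569), sa (spermatocyte arrest, FBgn0002842), mia (meiosis I arrest, FBgn0014342) and nht (no hitter, FBgn0041103). The genes were chosen by symbol, and all 7 were found among the 39823 gene models considered. The samples were pools of mated whole flies, 3 to 5 days old, from 96 inbred lines of the Drosophila Genetic Reference Panel (DGRP), with 30 males or 25 females in each pool and 2 replicates of each line and sex, each sequenced as 1 library. All flies of both sexes were reared on medium with 10% (v/v) ethanol; flies from standard medium were not analysed here, so that no effect of ethanol was measured. The labels give no more than a number for each replicate, and p-values for lines measure the spread between such replicates. Each line is 1 inbred genotype, and Wolbachia infection was not fitted.

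In the testis of Drosophila, germ cells grow as primary spermatocytes before meiosis and turn on a large set of genes that are used later, when spermatids elongate. This requires 2 groups of proteins that are named for their testis forms. The testis meiosis arrest complex (tMAC) is related to a repressor and activator complex of other tissues, and the testis TAFs (tTAFs) are related to the TBP-associated factors of the general transcription factor TFIID. Males that lack one of these genes have spermatocytes that stop before the meiotic divisions, and for this reason the genes are called meiotic arrest genes. In tMAC, aly encodes the relative of Mip130, topi a zinc finger protein and comr a protein without a close relative in the general complex. Among the tTAFs, can encodes the relative of Taf5, sa that of Taf8, mia that of Taf6 and nht that of Taf4.

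The genes lie on chromosome arms 2L (nht), 2R (comr), 3L (aly, can and sa) and 3R (mia and topi). Their exons, taken from release 6 of the annotation, cover between 948 bases (nht, 1 exon) and 2953 bases (can, 5 exons). Of the 7, 1 overlaps another gene, since sa and rgn lie on opposite strands of the same stretch without sharing an exon base. Coordinates are not given because the reads were counted on release 5.

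Total counts on gene models were between 6482252 and 17422329 in males (median 10224504) and between 5360410 and 16354156 in females (median 10472988). Markers of sperm-forming cells and of the reproductive tract separated the sexes. The summed level of 6 spermatid genes was between 1302 and 3406 CPM (read counts scaled to the size of the library) in male libraries, with a median of 0.501 CPM in female libraries, and the summed level of 4 genes of the female germline and follicle cells had a median of 2.36 CPM in male libraries, against values between 3348 and 17450 CPM in female libraries. In 34 female libraries from 31 lines, accessory gland transcripts were over 10 times the female median, and in 13 male libraries the female germline and follicle transcripts were over 10 times the male median (the highest had 1842 CPM). The main results were also computed without these libraries or their lines.

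All 7 regulators were expressed in the males of every line and were higher in males than in females of the same line in 96 of 96 lines, as were 22.7% of all transcripts tested. In whole flies, fewer cells of a type and less RNA per cell cannot be told apart. Levels below are in CPM after TMM normalization, and each line mean averages 2 libraries. In the tMAC group, aly had a lowest male line mean of 3.61 CPM, a median of 8.07 CPM and a highest of 17.5 CPM, and in females the lowest was 0, the median 0.0605 CPM and the highest 2.97 CPM. For topi, the male line means had a lowest value of 13.2 CPM, a median of 22.6 CPM and a highest of 44.5 CPM, and the female ones 0.511, 1.40 and 4.39 CPM. Both genes were therefore higher in the lowest male line than in the highest female line. The level of comr, the lowest of the group, was between 1.47 and 6.544 CPM in male lines (median 3.23 CPM) and between 0 and 0.850 CPM in female lines (median 0).

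Among the tTAFs, can was between 4.99 and 30.0 CPM in male lines (median 14.4 CPM) and between 0 and 1.498 CPM in female lines (median 0.164 CPM). Its male range was the widest of the 7 regulators, with a highest line 6.01 times the lowest. The level of sa was between 4.42 and 20.7 CPM in male lines (median 9.67 CPM) and between 0 and 1.81 CPM in female lines (median 0.0361 CPM). The level of nht was between 2.44 and 12.5 CPM in male lines (median 5.64 CPM) and between 0 and 0.196 CPM in female lines (median 0). Only 31 reads of nht were counted in all female libraries together, against 11863 in the male libraries, and it was at 0 in 168 female libraries. The gene mia was the exception among the 7. Its male line means were between 7.06 and 31.7 CPM (median 16.8 CPM) and its female line means between 1.18 and 9.04 CPM (median 5.48 CPM), it had at least 1 read in every female library, and 17 female lines were above the lowest male line. The lowest male line was above the highest female line for the other 6 regulators, as it was for 12.8% of all transcripts tested. Single libraries of the sexes did not overlap for can, sa, nht and topi (9.96% of all transcripts tested), whereas 3 female libraries of aly and 1 of comr were above the lowest male library.

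**Figure D1:**
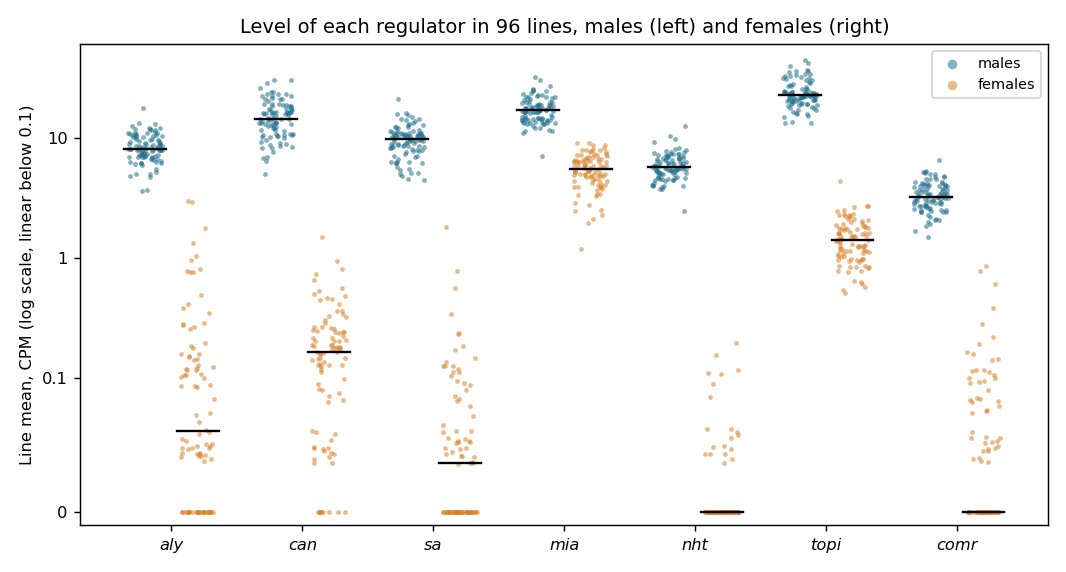
Line means of the 7 regulators (CPM, log scale that turns linear below 0.1) in 96 lines, with males on the left and females on the right of each gene and a bar at the median. The 2 sexes are apart for 6 genes, and for mia the male median of 16.8 CPM lies above the female median of 5.48 CPM with some overlap.

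Males had 375 times the mean female level of nht, 126 times that of sa, 70.9 times that of can, 49.3 times that of comr, 37.6 times that of aly, 16.1 times that of topi and 3.16 times that of mia. In edgeR's quasi-likelihood test of males over females, with line as a block and Benjamini-Hochberg (BH) adjustment over 18062 transcripts, all 7 rose in males, as did 57.8% of all transcripts tested. The log2 fold changes were 8.02 for nht, 7.11 for sa, 6.09 for can, 5.65 for aly, 5.61 for comr, 3.97 for topi and 1.61 for mia, against a median of 0.35 over all transcripts tested. The largest BH-adjusted p in edgeR was 8.71e-50, for mia. Of all transcripts tested, 13.2% had a log2 fold change over 5, which 5 of the 7 regulators had. With a prior count of 2 added before the log2, which understates the change of genes near 0 in females, limma gave 5.71 ± 0.0517 for nht, 6.02 ± 0.0873 for sa, 5.73 ± 0.0913 for can, 5.31 ± 0.117 for aly, 4.54 ± 0.0735 for comr, 3.92 ± 0.0582 for topi and 1.61 ± 0.0542 for mia (SE, n = 96 lines). Without the 31 lines that had accessory gland transcripts in a female library, the log2 fold change of sa was 8.17 and all 7 passed the test. Over all transcripts 17015 passed there in either direction, against 17141 in the main test.

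Per kilobase of exon, the male levels had the order sa, topi, mia, nht, can, aly and comr. The means were 10.1 ± 2.99 CPM per kb for sa, 8.94 ± 2.36 for topi, 6.65 ± 1.61 for mia, 6.21 ± 1.59 for nht, 5.10 ± 1.79 for can, 3.72 ± 1.003 for aly and 1.69 ± 0.466 for comr (SD, n = 96 lines). Neighbours in this order did not keep it in every line. The level of sa was above that of topi in 70 of 96 lines, and that of mia above that of nht in 55 of 96 lines with a mean difference of 0.440 ± 2.03 CPM per kb (SD), smaller than its own spread. The last step was the clearest, with aly above comr in 96 of 96 lines.

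The other subunits of the 2 groups were divided in their sex difference. Of 6 further tMAC subunits and partners, 4 rose in males (57.8% of all transcripts tested did), namely wuc (log2 fold change 6.74), which encodes a relative of Lin-52, vis (4.46), tomb (3.98), which encodes a relative of Mip120, and achi (0.61), and 2 fell, namely mip40 (-0.71) and Caf1-55 (-2.46), which also serve in the general complex. The copies achi and vis are near-identical, so that reads can be lost or split between them and their levels are uncertain. The remaining tTAF, Taf12L, rose with a log2 fold change of 4.34. None of the 7 general counterparts (Taf4, Taf5, Taf6, Taf8, Taf12, mip130 and mip120) rose in males, and all 7 fell (37.1% of all transcripts tested fell), with log2 fold changes between -2.37 and -0.50 and a median of -1.53.

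Set side by side per kilobase, the testis form was below its general counterpart in males for 5 of 7 pairs and above it for 2. The level of sa was 10.1 CPM per kb in males, 2.11 times that of Taf8 (4.78), and it was the higher of this pair in 95 of 96 male lines. Taf12L, with 18.3 CPM per kb, had 2.26 times the male level of Taf12 and was higher in 91 of 96 male lines. The ratio of the male means was 0.703 for mia over Taf6, 0.650 for can over Taf5, 0.635 for tomb over mip120, 0.536 for aly over mip130 and 0.324 for nht over Taf4. In females, no testis form was above its counterpart in any line. The female ratio was highest for mia over Taf6 (0.116) and lowest for nht over Taf4 (0.000552).

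**Figure D2:**
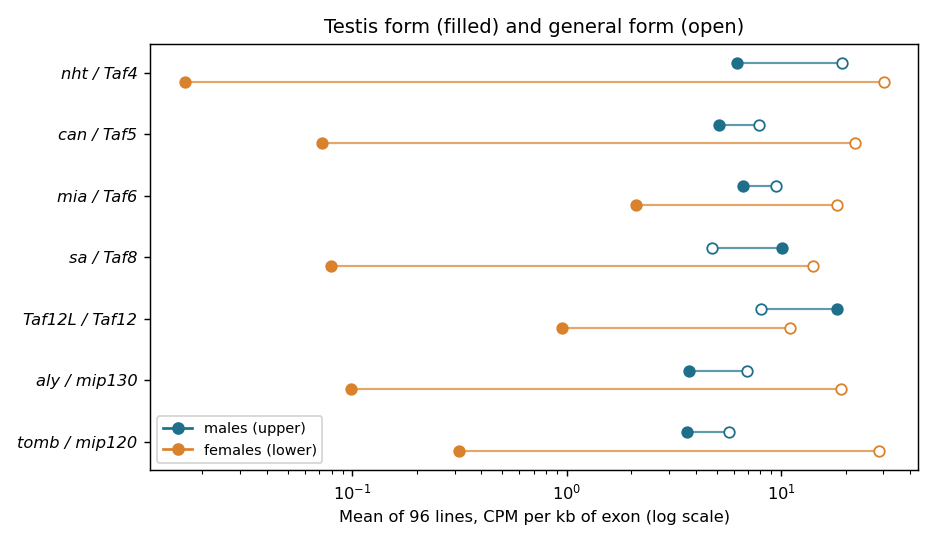
Mean level over 96 lines (CPM per kb of exon, log scale) of each testis form (filled) joined to its general counterpart (open), males above and females below in each pair. In males sa and Taf12L lie to the right of Taf8 and Taf12, and in females every testis form lies to the left, with mia nearest to its counterpart at a ratio of 0.116.

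Lines differed in the male level of all 7 regulators. This was tested over single male libraries with edgeR's quasi-likelihood F-test of 96 lines and BH adjustment over 18944 transcripts, of which 84.0% passed. The F was 10.0 for mia, 7.61 for can, 6.87 for sa, 5.93 for topi, 3.71 for aly, 2.55 for nht and 2.26 for comr, against a median of 3.00 over all transcripts tested, and the largest adjusted p in edgeR was 5.25e-05, for comr. With the replicate number as a block, F was 14.5 for can, 10.0 for topi and 9.96 for mia, and with pool as a covariate in limma it was 15.8 for can, 10.1 for topi and 9.15 for mia, so that the order of the regulators depends on that term. The share of the variance of log2 CPM that lay between lines was 0.820 for mia, 0.765 for can, 0.752 for sa, 0.699 for topi, 0.576 for aly, 0.423 for nht and 0.389 for comr, with a median of 0.491 over all transcripts tested. Thus comr and nht, the regulators with the fewest male reads (median counts of 34 and 59 per library), were also those with the smallest share, below that of the median transcript. Of the general counterparts, 3 of 7 passed, with a median F of 1.41.

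**Figure D3:**
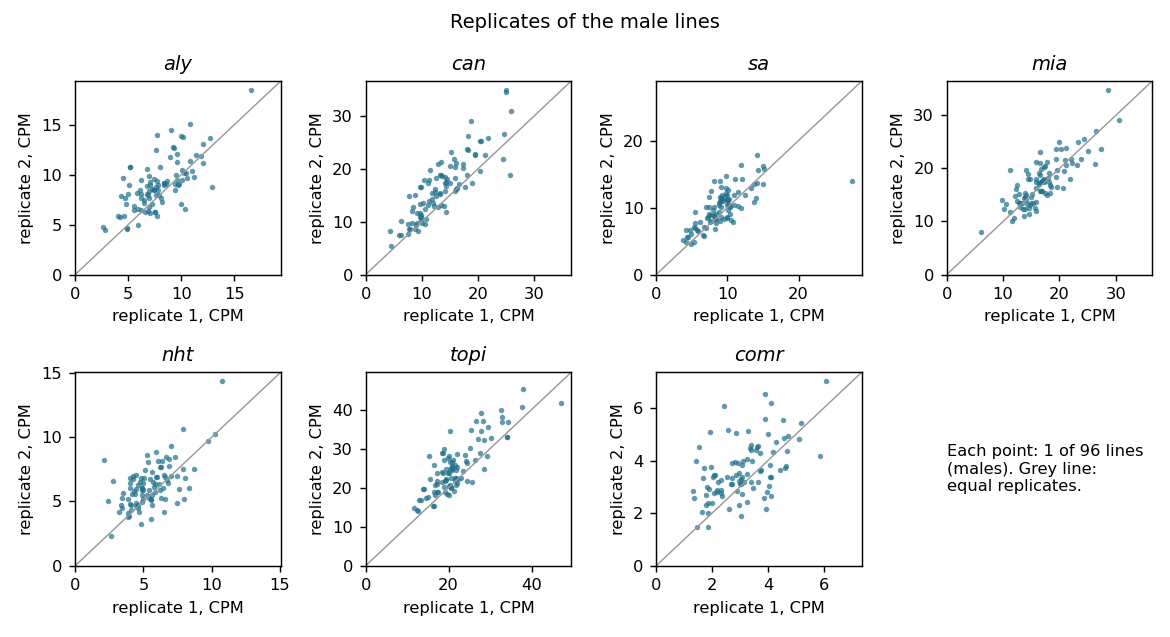
Replicate 2 against replicate 1 of each of 96 male lines (CPM) for the 7 regulators, with a grey line where both are equal. The Pearson r between replicates is highest for can, at 0.87, whose points lie mostly above the line, and lowest for comr, at 0.47, and the SD between replicates of log2 CPM is lowest for mia, at 0.15.

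The lines at the ends of the range are given with both replicates. Line 355 was the highest of all male lines for aly (16.6 and 18.4 CPM in its 2 replicates), nht (10.7 and 14.3 CPM) and comr (6.08 and 7.01 CPM), and the second highest for topi (37.9 and 45.3 CPM). Line 911 was the highest for topi, with 47.2 and 41.7 CPM, and for sa, with 27.5 and 13.9 CPM, so that its sa level rests on 1 replicate. At the other end, line 486 was the lowest for nht (2.60 and 2.28 CPM) and comr (1.46 and 1.49 CPM) and held rank 95 of 96 for aly, topi and mia and rank 93 for sa, but rank 80 for can. Line 801 was the highest for can (25.1 and 35.0 CPM) and line 707 the lowest (4.55 and 5.43 CPM). The order of the lines was in part different for mia. Line 177, the lowest for mia (6.16 and 7.95 CPM), had ranks between 68 and 92 for the other 6 regulators. Line 808, the second highest for mia (30.6 and 29.2 CPM), was the third highest for topi and nht. Line 596, with 28.6 and 34.7 CPM the highest for mia, had rank 94 for both aly and topi, and line 73, with rank 4 for mia at 25.5 CPM, was the lowest for aly, with 2.81 and 4.41 CPM, and had rank 95 for can and nht.

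Sequencing runs overlapped with the replicates. In 76 lines the male replicate 1 was sequenced on 1 flow cell (A) and replicate 2 on another (B), and A minus B on the log2 scale averaged -0.26 for can, -0.20 for comr, -0.18 for topi, -0.17 for aly, -0.17 for nht, -0.13 for sa and -0.02 for mia. With pool (flow cell and lane) as a covariate in limma all 7 passed the test of lines, as they did in edgeR in those 76 lines alone and without the 13 male libraries with female transcripts. In the other 20 lines alone, 5 of the 7 passed, with an adjusted p in edgeR of 0.19 for nht and 0.562 for comr. Over all transcripts, 17135 passed with pool as a covariate, 15760 in the 76 lines and 16085 without the 13 libraries. In the 20 lines 9999 passed, against 15914 in the main test. The numbers tested in these subsets are not given here.

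Over the 96 male line means, the levels of 6 of the regulators were correlated with each other, and no correlation with mia passed the test. The Pearson r of log2 CPM was highest for aly and comr, at 0.66 (Spearman's rho 0.63), followed by nht and comr at 0.59 and by aly and nht at 0.57. The 3 pairs within tMAC had a mean r of 0.59, the 6 pairs within the tTAFs 0.29 and the 12 pairs between the groups 0.39. Both of the last 2 sets hold 3 pairs with mia. The other pairs had r between 0.39 and 0.53 within the tTAFs and between 0.47 and 0.59 between the groups. The mean of all 21 pairs was 0.39, where pairs of annotated transcripts tested in males had a mean r of 0.0066 and pairs of the 2952 annotated transcripts over 4-fold higher in males a mean of 0.21, with 18.6% of those pairs over 0.5. In permutation tests with 100000 resamples (two-sided, BH over 21 pairs), 15 pairs passed, which were the 15 that did not include mia. Their r was between 0.39 (can and sa) and 0.66, their rho between 0.42 and 0.63, their permutation p between 1e-05, the smallest that can be reached, and 8e-05, and their adjusted p between 1.5e-05 and 0.000112. Without the 2 lines farthest from the median of the first gene of each pair (in the order aly, can, sa, mia, nht, topi, comr), r was between 0.35 and 0.61. Outlying lines of the second gene were kept. The 6 pairs with mia had r between -0.03 (aly) and 0.14 (nht), with rho between 0.03 and 0.20, permutation p between 0.157 and 0.743 and adjusted p between 0.206 and 0.743. The difference between the 2 sets of correlations was not tested, and mia was set apart after its values were seen.

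**Figure D4:**
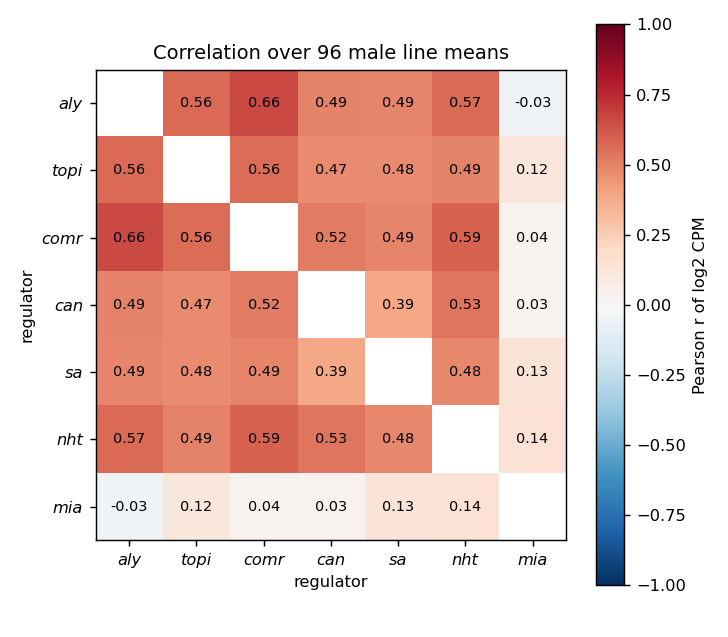
Pearson r of log2 CPM between each pair of the 7 regulators over 96 male line means, on a colour scale from -1 to 1. The 15 pairs without mia have r between 0.39 and 0.66, and the row and column of mia lie between -0.03 and 0.14.

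In 14 of 96 lines the other 6 regulators were all above their medians and in 16 lines all below, and the remaining 66 lines were mixed. In the 76 lines on flow cells A and B the 15 pairs without mia had r between 0.40 and 0.66 and those with mia between -0.09 and 0.09. In the other 20 lines they had r between -0.01 and 0.56, and with mia between 0.06 and 0.57, and no pair passed the permutation test. With pool means taken out, r was between 0.40 and 0.65 for the pairs without mia. The level of the spermatid genes over male lines also had r = 0.42 with topi (permutation p = 3e-05, BH-adjusted p = 0.00042 over 14 relations), 0.33 with aly, 0.29 with can, 0.28 with nht, 0.27 with sa, 0.20 with comr and 0.13 with mia, of which comr and mia did not pass (adjusted p of 0.0798 and 0.243). Without the 13 lines that had female transcripts in a male library, the pairs without mia had r between 0.43 and 0.67 and those with mia between -0.04 and 0.18. After regression on the spermatid genes, the 15 pairs without mia had r between 0.34 and 0.64. All of these spermatid genes are also in the list of dependent genes below, so the regression does not measure the amount of testis apart from the regulators. The level of the 9 accessory gland genes was negatively correlated with can (r = -0.27, BH-adjusted permutation p = 0.0164), sa (-0.26, 0.0186) and topi (-0.23, 0.0387), and had r between -0.15 and 0.04 with the other 4 regulators, which did not pass. Its part in the correlations between regulators was not tested.

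The genes whose male level was most like that of the regulators, by mean r with the 7 over 96 lines among 10751 annotated transcripts that averaged 50 counts or more in males, were tbrd-1 (0.60), CG8478 (0.59), CG10887 (0.59), ATPsynbetaL (0.59), tbrd-2 (0.59), Rbp4 (0.58), msb1l (0.58), CG7907 (0.58), Best3 (0.58) and CG31528 (0.57). The median over annotated transcripts tested in males was -0.05. Both tbrd-1 and tbrd-2 encode bromodomain proteins of spermatocytes, and Rbp4 encodes an RNA-binding protein of spermatocytes. Of the 10, 8 were higher in males, with log2 fold changes between 5.36 (Rbp4) and 8.70 (CG7907). CG8478 and msb1l were lower in males, with 44.7 and 55.9 CPM in males and females for CG8478 (log2 fold change -0.39) and 16.1 and 48.5 CPM for msb1l (-1.65). Each of the 10 had its lowest r with mia, at 0.23 or less. This follows from the choice by mean r, since the other regulators were correlated with each other and mia was not, and it adds no separate sign. The transcript most like mia itself was CG7974, with r of 0.43, whereas the best match of each other regulator had r between 0.69 and 0.77. None of the 5 best matches of any regulator was another of the 7. However, comr, with a mean of 35.3 counts in males, was below the minimum of 50 and could not be listed as a match.

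Of the other genes tied to spermatocytes, 5 of 7 further regulators rose in males (kmg, tbrd-1, tbrd-2, tbrd-3 and dany), where 57.8% of all transcripts tested rose and 37.1% fell, and 2 fell, thoc5 (-1.54) and nxt1 (-2.71), which serve in RNA export in all tissues. The mean r of these further regulators with the 7 over male lines had a median of 0.52 and lay between -0.26 (nxt1) and 0.60 (tbrd-1), with 0.02 for thoc5 and 0.21 for tbrd-3. Of 18 genes that are known to depend on some or all of the regulators, 16 rose in males, with a median log2 fold change of 9.34 over the 18. The level of fzo, the mitofusin of spermatids, averaged 85.9 ± 16.7 CPM over male lines, against 5.79 ± 1.47 CPM over female lines (SD, n = 96 each), and its mean r with the regulators, 0.54, was the highest of the 18. Those that fell were twe, the Cdc25 phosphatase of meiosis (log2 fold change -0.75), and CycB (-4.82), which females also use in oogenesis. The 18 had mean r between 0.04 (Mst84Dc) and 0.54, with a median of 0.36. Of the genes of early germ cells, bgcn rose in males (5.04) and bam, nos and zpg fell, and of the 5 genes of cyst and hub cells 2 rose and 3 fell. These 2 lists had a median mean r of 0.25 and 0.0052 with the regulators. The early germ cell genes were divided, with mean r of 0.51 for bgcn, 0.40 for bam, 0.11 for nos and 0.04 for zpg. The genes of cyst and hub cells were between -0.11 and 0.24.

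In females, mia and topi had enough counts for a test of lines (a mean of at least 5), and both passed, as did 72.2% of 14760 transcripts. The F was 3.27 for mia (adjusted p in edgeR 1.99e-08) and 1.66 for topi (0.00989), against a median of 1.87. Without the 34 female libraries with accessory gland transcripts, it was 3.64 for mia (adjusted p in edgeR 1.26e-07) and 2.59 for topi (6.34e-05). The female range of mia was 7.65-fold, with line 441 the highest (6.69 and 11.4 CPM) and line 783 the lowest (0.158 and 2.21 CPM in its 2 replicates). The low value of line 783 was 1 read in 1 library, without which line 786 was the lowest at 1.96 CPM and the range was 4.62-fold. For topi, line 852 stood at 3.99 and 4.79 CPM, above the next highest line, 437, at 2.64 and 2.78 CPM. The line means of males and females had r of 0.18 for mia (permutation p = 0.0723, BH-adjusted p = 0.145 over 2 genes; rho 0.13, p = 0.207; r without 2 lines 0.13) and 0.14 for topi (permutation p = 0.185, adjusted p = 0.185; rho 0.11, p = 0.267; r without 2 lines 0.10).

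The 5 other regulators were too low for this test, and without the filter aly passed, with an F of 3.82 and an adjusted p in edgeR of 1.94e-09, where 32.59% of transcripts did. In that fit edgeR's adjusted p was 0.0574 for topi and between 0.0856 and 0.942 for can, sa, nht and comr, none of which passed. Of the 455 female reads of aly, 167 (36.7%) came from 3 lines, and 70 of 96 female lines were above 0. Males of these 3 lines had 6.19 CPM (line 437, rank 84 of 96), 7.16 CPM (line 306, rank 66) and 8.96 CPM (line 461, rank 34), and females had over 1 CPM in both replicates of line 437 (2.98 and 2.95 CPM, 35 and 33 reads), line 306 (1.98 and 3.84 CPM, 25 and 42 reads) and line 461 (1.15 and 2.39 CPM, 9 and 23 reads), and its median over female lines was 0.0605 CPM. The spermatid genes summed to 0 and 0.447 CPM in those libraries of line 437, to 0.711 and 0.171 CPM in line 306 and to 2.42 and 0.205 CPM in line 461. None of can, sa, nht and comr was over 1 CPM in both female replicates of any line. The female level of topi had rank 2 of 96 in line 437 (2.71 CPM), rank 4 in line 306 (2.65 CPM) and rank 61 in line 461 (1.18 CPM). For mia the female ranks in lines 437, 306 and 461 were 8, 6 and 12. The highest female level of sa, in line 399, was 3.29 and 0.340 CPM, and there the spermatid genes summed to 22.2 and 12.2 CPM. Over all female libraries, sa averaged 0.262 CPM in the 34 libraries with accessory gland transcripts and 0.0362 CPM in the other 158 (0.171 CPM in the first set without the library of line 399 with 3.29 CPM), and aly averaged 0.242 and 0.220 CPM in these.

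**Figure D5:**
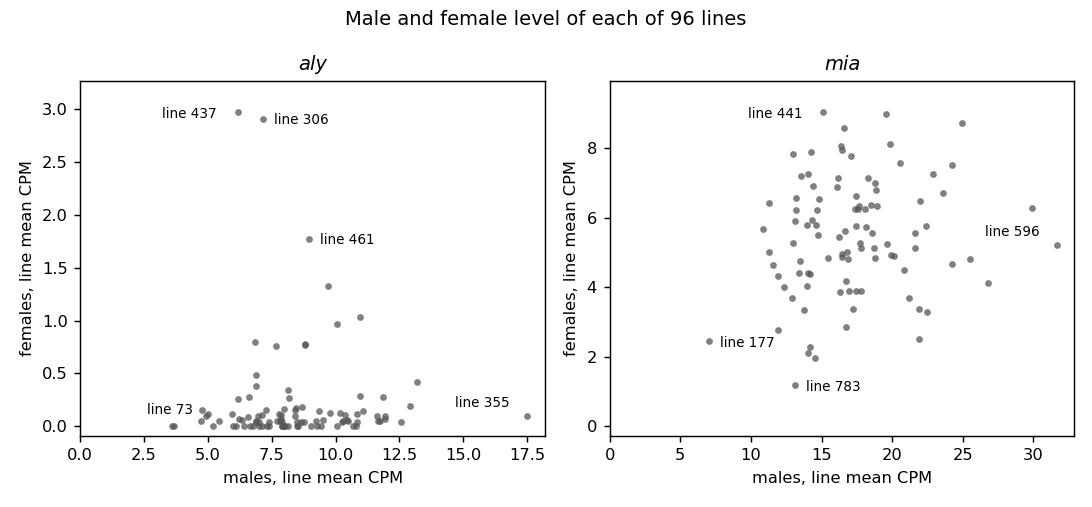
Line means (CPM) of aly and mia in males (horizontal) and females (vertical) for 96 lines, with the lines at the ends of each range marked. Line 355, the highest for aly in males at 17.5 CPM, is near 0 in females, and lines 437, 306 and 461, with male levels between 6.19 and 8.96 CPM, have the highest female levels of aly.

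The size of the sex difference varied among lines for 6 of the 7 regulators in edgeR's test of the sex by line interaction, as it did for 50.3% of 18062 transcripts. The F was 5.92 for aly (rank 157 of 18062, adjusted p 4.55e-22), 4.06 for mia (rank 484, adjusted p 2.26e-15), 2.71 for sa, 2.45 for topi, 2.29 for can and 2.11 for comr, and 1.49 for nht, which did not pass (adjusted p 0.264). The median F was 1.41 over all transcripts tested. With 0.2 CPM added to both, the log2 ratio of the line means of males over females was between 1.01 (line 437) and 5.91 (line 355) for aly and between 0.71 (line 358) and 3.27 (line 783) for mia. Without the female library of line 783 that had 1 read of mia, that line had 2.47 and the largest ratio was 3.03, in line 45. The ratio was above 0 in all 96 lines for each of the 7 regulators. In limma, nht passed (adjusted p 2.44e-05) and comr did not (0.104). Without the lines that had transcripts of the other sex in a library, sa did not pass (F of 1.42, adjusted p in edgeR 0.186), and aly had an F of 10.1.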

How the data were processed

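The authors trimmed reads with cutadapt 1.6, removed reads that matched ribosomal, microbial and repeat sequences with BWA 0.7.10, aligned the rest to BDGP5 with STAR 2.4.0e, and counted them on gene models with HTSeq (intersection-nonempty). The deposited values are raw read counts for 40020 gene models in 384 libraries, with no normalization and no pooling of replicates. The libraries were directional, but the strand setting of the counting is not given in the sources used here, so reads of sa and rgn may not be separable. Reads that matched more than 1 place (25.8% of alignments) were not counted; those that matched no gene were 2.85% and ambiguous ones 1.39%. These and 162 ribosomal and 35 mitochondrial models entered neither library sizes nor tests.

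Counts were analysed with R 4.3.3, edgeR 4.0.16, limma 3.58.1 and DESeq2 1.42.0, and with Python 3.11.15 and SciPy 1.17.1. Transcripts averaging 5 counts or more per library were tested after TMM normalization with edgeR's quasi-likelihood F-test, BH adjustment and a threshold of 0.05; the dispersion trend was estimated on every 20th transcript by abundance. The sex effect was fitted to summed replicates, blocked by line, the line effect within each sex and the interaction over all libraries. Levels are CPM, and correlations used line means of log2 CPM (prior count 2). Exon lengths are from BDGP6. Total counts between 5360410 and 17422329 per library and this minimum set the lowest level tested in females. The tests were tested on simulated counts with known changes.

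The 7 regulators were chosen by symbol and the lists (other tMAC subunits, the remaining tTAF, general counterparts, other spermatocyte regulators, dependent genes, and markers of spermatids, accessory gland, early germline, cyst and hub cells, ejaculatory bulb and female germline) from general knowledge, all with earlier results of these data known. Named besides these were the 10 transcripts with the highest mean r with the regulators and the lines at the ends of a range. Alternatives were other scalings, filters and tools, each replicate left out, blocks for replicate, flow cell and pool, subsets of lines, lines or libraries without accessory gland transcripts in females, and, added after seeing the data, those without female transcripts in males.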

Additional observations from a re-analysis of the deposited data

Results flagged for a closer look

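The sex difference of 6 regulators varied among the 96 lines in edgeR's test of the sex by line interaction, which makes them differ between lines under the same contrast. Of all 18062 transcripts tested, 50.3% passed it as well. The interaction F was 5.92 for aly, 4.06 for mia, 2.71 for sa, 2.45 for topi, 2.29 for can and 2.11 for comr. Of these, aly, can, sa and comr averaged 0.703 to 2.37 reads per female library, so that their F rests on female values near 0. For aly, the line with the smallest log2 ratio of males over females was line 437 (1.01), where females had 2.97 CPM. For mia it was line 358 (0.71), and the largest ratio was in line 783 (3.27), where females had 1.18 CPM; without the female library of line 783 that had 1 read of mia, its ratio was 2.47 and the largest was 3.03, in line 45. Groups of 2 replicates are too small for a search for single libraries that stand apart.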

How the results depend on the processing

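The 7 regulators rose in males in every alternative that tested them, and log2 fold changes were between 1.54 (mia) and 8.62 (nht). Under a minimum of 50 counts, 4 of the 7 were tested for sex and all passed, 6 for the male line effect, and 1 (mia) for the female line effect. Over all transcripts 10717 passed for sex, 10348 for the male line effect and 8015 for the female line effect. The main tests had 17141, 15914 and 10664, and without a filter 26975 passed for sex. In the 20 lines whose males were not split between flow cells A and B, 9999 transcripts passed for the male line effect, 0 of 21 pairs of regulators were correlated against 15, the mean r was 0.32 and that of sa and nht -0.014; the smaller number of lines is part of this construction. The mean r of the 21 pairs, 0.39, was 0.42 with scaling to total counts, 0.35 after regression on the spermatid genes, and between 0.33 and 0.37 with 1 replicate left out. In the test of sex by replicate, leaving out 1 replicate kept all 7, with 16521 to 17118 transcripts. Left out replicates gave no value for line effects and interactions, since no residual degrees of freedom remain. Replicates of males and females with the same number deviated together (r over 0.1) in 52 of 96 lines, so that the numbers were not taken to pair them; within males the number goes with the flow cell in 76 lines. With a replicate block, the counts of regulators that passed were 7 for sex (limma), 7 for the male lines, 2 for the female lines and 6 for the interaction (limma), where nht passed and comr did not (adjusted p in limma 0.0707). Over all transcripts, this block gave 17295 of 18062 for sex and 16790 of 18944 for the male lines. It gave 11767 of 14760 for the female lines and 10354 of 18062 for the interaction, so that most transcripts passed as well. Scaling by DESeq2's size factors or total counts moved the median log2 fold change of all transcripts to 0.50 or 0.47 and that of mia to 1.76 or 1.74. Depth limits the female results of aly, can, sa, nht and comr, with means of 0.162 to 2.37 reads per female library.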

Other observations

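Other genes tied to spermatocytes also had a high female level in single lines, with both replicates high. These were looked at after the values were seen. Female tomb had a median of 0.127 CPM over lines, and it stood out in lines 75 and 386. In line 75 males had 6.24 CPM and the female replicates 4.29 and 5.29 CPM, and in line 386 males had 3.52 CPM and the female replicates 4.17 and 4.56 CPM. In line 358, wuc had 11.8 CPM in males and 5.42 and 4.47 CPM in the female replicates, and it had no more than 0.386 CPM in any other female line. Female dany had a median of 0.683 CPM, and in line 360 it had 3.91 CPM in males and 15.3 and 12.99 CPM in the female replicates. It was 21.4 and 15.7 CPM in females of line 427, 9.95 and 14.8 CPM in line 787 and 10.1 and 10.0 CPM in line 882. The spermatid genes summed to 0.224 to 0.4999 CPM in the female libraries of lines 75, 358 and 360, and to 1.82 and 5.11 CPM in line 386, 2.79 and 14.3 CPM in line 427, 0.779 and 3.74 CPM in line 787 and 0.498 and 1.84 CPM in line 882. Of the 3 lines in which female aly was highest, only line 437 was among the highest female lines of these genes. It was the third for tomb, with 1.62 and 1.43 CPM. Female aly was 0.780 CPM in line 882 and 0.766 CPM in line 386, against a median of 0.0605 CPM over female lines. It was no more than 0.160 CPM in lines 75, 358, 360, 427 and 787.

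The ejaculatory bulb genes Ebp and EbpII, which have no tie to spermatocytes, had mean r of -0.03 and -0.01 with the 7 regulators over male lines.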
